A study of Mus musculus with 2 samples.

Results

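The genes described here are the constant regions of the antibody heavy chain, Ighm, Ighd, Igha, Ighg1, Ighg2b and Ighg3, together with Jchain, Mzb1, Derl3 and Sdc1, which mark antibody-secreting cells. They were taken by symbol, and all 10 of 10 were among the 32285 gene rows of both matrices. Single-cell RNA was measured in droplets from BALB/cAnNCrl mice carrying liver metastases of 4T1, a mouse mammary carcinoma line. CBL0137, a compound known to act on chromatin, had been infused into the hepatic artery at a dose called low or high, and control mice had received vehicle. The amounts were not given in the sources used here. Cells of each group carried 1 hashtag antibody, A0301 for vehicle, A0305 for low dose and A0310 for high dose, and the 3 groups were loaded together into 1 library that the labels call liver and 1 that they call spleen. The labels describe the cells as leukocytes from a density gradient, and the study's methods describe cells taken with CD11b magnetic beads, a step that selects myeloid cells. Mice were pooled within a group, so each group was 1 sample in each library and no difference between groups was tested. Intervals are 95% intervals, exact except for differences in share, and cover counting error only.

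Background on these genes is well established. A naive B cell places a variable segment in front of the mu and delta constant regions and carries IgM and IgD on its surface, and class switching moves the same segment to a gamma, epsilon or alpha constant region further along the locus. When a B cell becomes a plasma cell, it loses the B cell program (Pax5, Ms4a1), expands its endoplasmic reticulum under Xbp1 and Prdm1, and releases antibody. Jchain encodes the small protein that links IgM and IgA into polymers, Mzb1 a chaperone of the endoplasmic reticulum that helps IgM assembly, Derl3 a part of the machinery that removes misfolded proteins from that compartment, and Sdc1 the surface proteoglycan CD138, which is also made by epithelial cells.

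The heavy chain members lie side by side on chromosome 12 of GRCm38, on the minus strand, in the order Ighm (chr12:113418558-113422730), Ighd (chr12:113406604-113416324), Ighg3 (chr12:113356224-113361232), Ighg1 (chr12:113325240-113330523), Ighg2b (chr12:113302965-113307933) and Igha (chr12:113254830-113260236). Sdc1 is on the same chromosome at chr12:8771323-8793715, Jchain at chr5:88519809-88527891, Derl3 at chr10:75893413-75895941 and Mzb1 on another chromosome. The reference holds Ighg2c, the C57BL/6 form of a gamma gene of which BALB/c mice carry another form, Ighg2a, so that gamma isotype was counted only as far as its reads matched. The last 60 coding bases of the secreted forms, stop codon included, show what links 2 of these isotypes with Jchain. In capitals is the codon of the next-to-last residue where it encodes cysteine, the residue through which mu and alpha tails bond in polymers.
Ighm, chr12:113420867-113420926: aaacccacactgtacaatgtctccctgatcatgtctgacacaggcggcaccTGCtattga
Igha, chr12:113258768-113258827: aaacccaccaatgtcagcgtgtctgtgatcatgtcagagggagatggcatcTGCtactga
Ighg1, chr12:113328976-113329035: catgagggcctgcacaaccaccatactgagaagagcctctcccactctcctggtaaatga
Ighg3, chr12:113359665-113359724: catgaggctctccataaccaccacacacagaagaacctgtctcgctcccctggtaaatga
Ighm and Igha shared 41 of these 60 bases, Ighg1 and Ighg3 shared 48, and Ighm and Ighg1 shared 20. Ighg2b and Ighd had no cysteine codon at that place either. The groups were told apart by hashtag sequences of 15 bases, printed here because every group value rests on them.
A0301, vehicle: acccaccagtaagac
A0305, low dose: ctttgtctttgtgag
A0310, high dose: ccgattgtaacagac

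The library labelled liver held 9591 barcodes, of which 8435 had a single hashtag, with 68667953 gene UMIs and a median of 4648 per barcode. The library labelled spleen held 4830, of which 2988 had a single hashtag, with 28272132 UMIs and a median of 5462. Only 15 barcodes were shared. Clec4f, which marks the resident macrophages of the liver, had 0 UMIs in the liver-labelled library and 3520 in the spleen-labelled library, and the hepatocyte gene Alb had 0 and 549. The libraries thus went against their tissue labels, their files are named for the opposite tissue as well, and each library is called here by its label alone. Cells were clustered without immunoglobulin genes and the members, and clusters were named from marker lists. B-like cells numbered 527 in vehicle, 546 at the low dose and 444 at the high dose in the liver-labelled library, and 32, 37 and 67 in the spleen-labelled library.

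Levels over all cells of a group are given as CPM, counts of a gene per 1000000 UMIs. In the liver-labelled library, Ighm, the IgM heavy chain, was at 913 CPM in vehicle (interval 901 to 924), 1583 at the low dose (1568 to 1599) and 822 at the high dose (809 to 836). Jchain was at 115, 439 and 380.3 CPM in the same order, from 3048, 10903 and 6591 UMIs. Igha, the IgA heavy chain, was at 2.64, 2.62 and 413 CPM, from 70, 65 and 7167 UMIs. Both dose groups thus had more Jchain per UMI than vehicle, the high dose alone stood out in Igha, and Ighm was highest at the low dose.

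Mzb1 was at 47.2 CPM in vehicle, 118 at the low dose and 60.8 at the high dose. Derl3 was at 1.62, 6.93 and 2.88 CPM and Sdc1 at 0.830, 1.45 and 1.73 CPM, Sdc1 from 22, 36 and 30 UMIs. Ighd, the IgD heavy chain, was at 87.4, 68.6 and 97.3 CPM. The gamma isotypes were rare in every group. Ighg1 was at 2.26, 1.37 and 5.31 CPM, Ighg2b at 0.792, 0.604 and 1.62, and Ighg3 at 1.81, 3.30 and 1.67.

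A handful of barcodes carried most of these UMIs. Of the Jchain UMIs in the liver-labelled library, 94.6% in vehicle, 99.0% at the low dose and 98.6% at the high dose sat in barcodes of plasma type, defined as barcodes with at least 3 UMIs of Jchain, at least 3 of Mzb1 and none of Siglech, a gene of plasmacytoid dendritic cells. These were 5 of 3103, 12 of 3194 and 10 of 2138 barcodes. At the high dose, 2 barcodes held 7103 of the 7167 Igha UMIs, which is 99.1%. Without the plasma-type barcodes, Jchain was at 6.22, 4.29 and 5.26 CPM, Igha at 2.66, 2.25 and 3.68, and Ighm at 287, 236 and 329. The fall in Jchain was partly fixed by the rule, which uses that gene. Mzb1 kept 39.8, 34.1 and 44.3 CPM, since B-like cells carry it too. At the high dose, a barcode outside the rule with 83 Mzb1 UMIs stayed in these sums. More cells of a type and more RNA per cell cannot be told apart in such sums over a group.

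**Figure D1:**
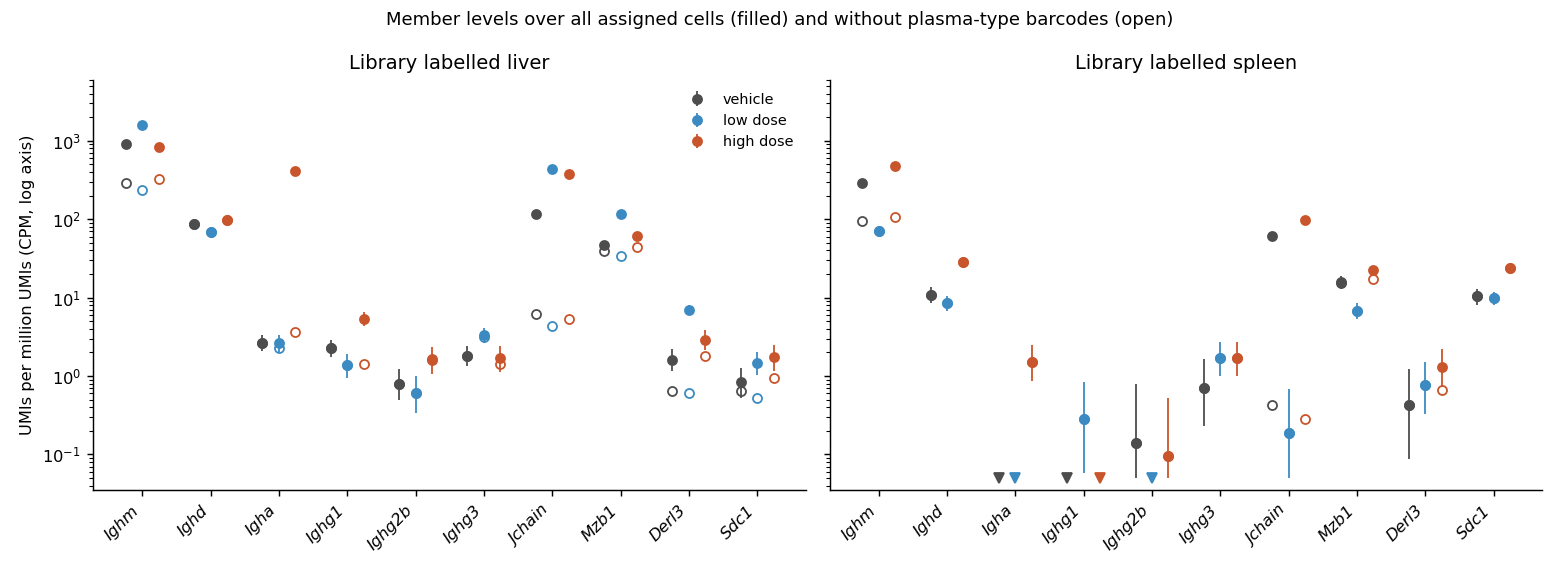
CPM (log axis) of the 10 genes in vehicle, low dose and high dose, for the liver-labelled library (left) and the spleen-labelled library (right). Filled points are all cells with 1 hashtag, with 95% counting intervals cut off at the lower edge, open points leave out the plasma-type barcodes, and triangles at the lower edge mark a gene with no UMI. The filled and open points lie far apart for Jchain, except at the low dose of the spleen-labelled library where both are at 0.190 CPM, and for Igha at the high dose in the liver-labelled library, where 413 CPM becomes 3.68. Jchain was in the plasma-type rule, so its gap was partly fixed by the selection.

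In the spleen-labelled library, Ighm was at 293 CPM in vehicle, 69.9 at the low dose and 472 at the high dose, and Jchain at 61.0, 0.190 and 97.4 CPM. Single barcodes carried most of these UMIs in vehicle and at the high dose. In vehicle, 1 barcode held 1408 of 2086 Ighm and 432 of 435 Jchain UMIs, and at the high dose 1 barcode held 3882 of 4995 and 1028 of 1031, while the low dose had no plasma-type barcode and 2 Jchain UMIs. Without them, Ighm was at 95.1, 69.9 and 105 CPM. Ighd was at 10.8, 8.43 and 28.6 CPM, Mzb1 at 15.7, 6.82 and 22.2, Derl3 at 0.421, 0.758 and 1.32, and Ighg3 at 0.701, 1.71 and 1.70. Igha had 0 UMIs in vehicle and at the low dose and 16 at the high dose, all in 1 B-like barcode. Ighg1 had UMIs at the low dose only, 3 in 1 barcode, and Ighg2b had 1, 0 and 1. Sdc1 was at 10.4, 9.86 and 23.8 CPM, a level above that of the liver-labelled library in every group.

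Dose ratios were taken with and without the plasma-type barcodes. Over all cells of the liver-labelled library, 3 of 10 members were at least 2-fold higher at the low dose than in vehicle, against 1.58% of all 13067 genes with at least 20 UMIs over the compared groups, and none was 2-fold lower (1.32% of all genes). These were Jchain, with a log2 ratio of 1.93 (1.88 to 1.99), Mzb1 with 1.32 (1.22 to 1.42) and Derl3 with 2.09 (1.61 to 2.61). At the high dose, 5 of 10 were at least 2-fold higher, against 10.3% of all genes, and none lower (5.04%). Igha had a log2 ratio of 7.29 (6.95 to 7.65), Jchain 1.73 (1.66 to 1.79) and Sdc1 1.06 (0.22 to 1.92), and Ighg1 and Ighg2b were the others. Ighg2b rested on 28 UMIs against 21 in vehicle, with a log2 ratio of 1.03 (0.16 to 1.92). Leaving out the barcode with the most UMIs of the gene in each group gave 0.83 (-0.39 to 2.08) for Ighg2b and 0.82 (-0.11 to 1.76) for Sdc1, neither past 2-fold. Both comparisons share the vehicle cells.

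With the plasma-type barcodes left out, none of the 10 was 2-fold higher or lower at the low dose (1.41% and 1.30% of all genes). Jchain and Mzb1 were in the rule that picked these barcodes. The change in their ratios was thus partly fixed by the selection and is a description. At the high dose Ighg2b and Derl3 were past 2-fold (10.4% of all genes, with 4.93% lower), Derl3 with 31 UMIs against 17 in vehicle. A single barcode outside the rule held 13 of the 31, and the Derl3 ratio without it was not taken. The low-dose ratios without plasma-type barcodes went below 0 for Ighm, at -0.28 (-0.33 to -0.23), Jchain, at -0.54 (-0.90 to -0.17), and Mzb1, at -0.22 (-0.36 to -0.09). T-like cells held 56 of the 164 Jchain UMIs left in vehicle, seen in 4.07% of 589 cells. At the low dose they held 20 of 105, seen in 2.12% of 850 cells. A Jchain ratio without T-like cells was not taken. Within B-like cells alone, no member of the 9 with enough UMIs was 2-fold higher at either dose (1.58% and 1.04% of all genes), and Igha and Derl3 were 2-fold lower at the low dose (2.17%), from 23 in vehicle against 10 and from 14 against 6 UMIs, with intervals that held 0. None was 2-fold lower at the high dose (2.79%). Ighm in B-like cells was at 2947 CPM in vehicle, 2439 at the low dose and 2205 at the high dose.

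**Figure D2:**
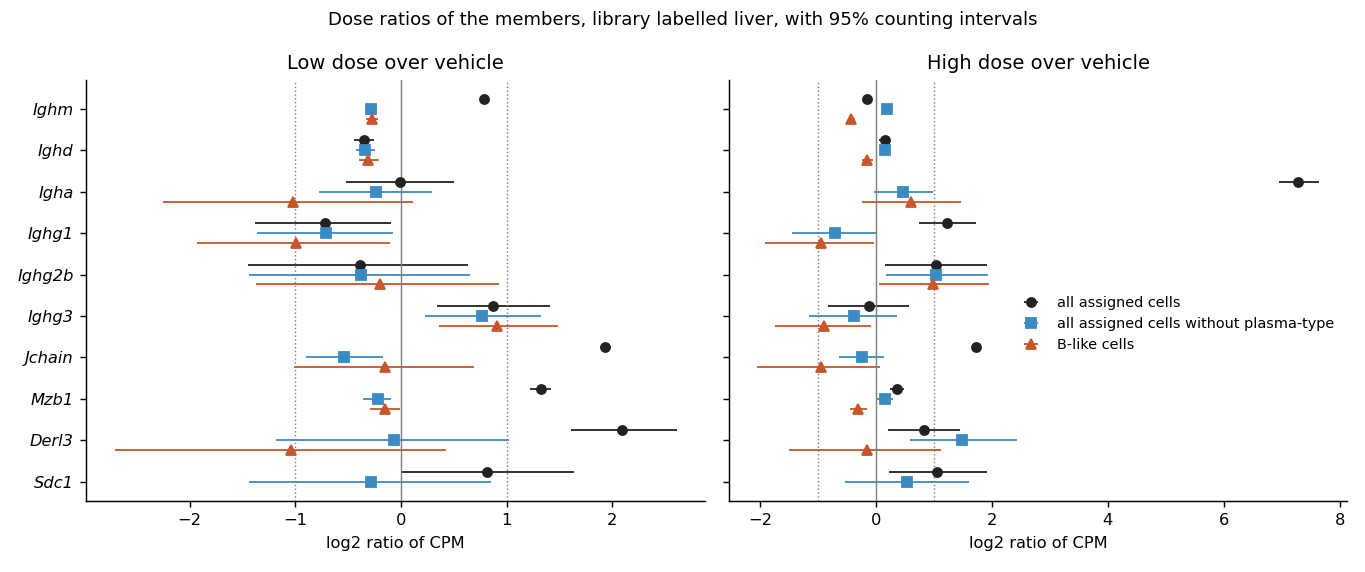
Log2 ratio of CPM to vehicle for each member in the liver-labelled library, at the low dose (left) and the high dose (right), with 95% counting intervals and dotted lines at a 2-fold difference. Circles are all cells with 1 hashtag, squares leave out plasma-type barcodes and triangles are B-like cells, where Sdc1 had too few UMIs. The circles of Jchain lie at 1.93 and 1.73 and its squares at -0.54 and -0.24. Jchain and Mzb1 were in the plasma-type rule, so this step was partly fixed by the selection.

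Among the members in the spleen-labelled library, 6 had at least 20 UMIs over the low-dose and vehicle cells. Ighg3 was at least 2-fold higher (4.67% of all genes) and Ighm, Jchain and Mzb1 at least 2-fold lower (0.876%). The Ighg3 ratio, 1.28 with an interval that held 0 (-0.20 to 3.07), came from 18 UMIs against 5 in vehicle, and 2 barcodes held 88.9% of the 18. At the high dose, 3 of 6 were at least 2-fold higher, Ighd, Ighg3 and Sdc1, beside 15.6% of all genes, and none lower (2.19%). Without the plasma-type barcodes, Mzb1 alone stayed past 2-fold lower at the low dose, with a log2 ratio of -1.16 (-1.61 to -0.72), beside 0.851% of all genes. Ighg3 stayed at least 2-fold higher there (4.67%). At the high dose Ighd, Ighg3 and Sdc1 stayed higher, 3 of 5 members beside 15.5% of all genes, and none was lower (2.17%). Within B-like cells, 1 of 4 members was 2-fold higher at the low dose (Ighg3, 6.42% of all genes) and 0 of 4 at the high dose (4.90%), and none was 2-fold lower at either (4.99% and 6.79%).

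Plasma-type barcodes made up 0.161% of vehicle cells in the liver-labelled library (0.0523 to 0.376), 0.376% of low-dose cells (0.194 to 0.655) and 0.468% of high-dose cells (0.225 to 0.858). The low dose was 0.215 percentage points above vehicle, with an interval from -0.0664 to 0.515, and the high dose 0.307 points above, from -0.0177 to 0.712. Both intervals held 0, so a difference in share was not detectable at these numbers of cells. The library labelled spleen had 1 of 822, 0 of 1301 and 1 of 865, and the 0 allows a share of up to 0.231%. Plasma-type barcodes were deep, with a median of 25314 UMIs against 4648 over all cells of the liver-labelled library, and Scrublet, a doublet caller, marked 0 of them. It marked only 2.59% of all barcodes of that library, so a 0 among 27 cannot exclude doublets. In the clustering, which did not use the members, 1 cluster of 20 cells held 19 of the 27. The other cell of that cluster had 0 Jchain UMIs, 83 of Mzb1 and 639 of Ighm.

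The 27 fell into unlike kinds. In 22 of them, heavy chain UMIs were at least 1% of all UMIs of the barcode, and these are called heavy-rich. Their heavy chain share ran from 5.75% to 19.2% with a median of 11.2%, and the whole immunoglobulin share from 17.0% to 70.9% with a median of 49.5%. In the other 5 the heavy chain share was 0.0485% to 0.232%. The heavy-rich were 4 in vehicle, 11 at the low dose and 7 at the high dose, or 0.129%, 0.344% and 0.327% of cells. Of the 4 in vehicle, 1 lay in a monocyte-like and 1 in a T-like cluster, and 1 of the 7 lay in a T-like cluster. Both plasma-type barcodes of the spleen-labelled library were heavy-rich, with 31.4% in vehicle and 12.3% at the high dose. The former lay in an unnamed cluster and the latter in a T-like cluster. Whether such barcodes mix cells was not tested beyond the doublet calls, and in the spleen-labelled library Scrublet had not worked.

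Jchain in the 4 heavy-rich barcodes of vehicle was at 1197, 752, 583 and 347 UMIs. At the low dose the 11 ran from 379 to 1437 with a median of 1049, and at the high dose the 7 ran from 207 to 1815 with a median of 458. The ranges of the 3 groups overlapped. Mzb1 ran from 12 to 107 UMIs in vehicle (median 35.5), from 6 to 357 at the low dose (median 176) and from 3 to 62 at the high dose (median 23). Derl3 ran from 0 to 15, from 3 to 31 and from 0 to 6, with medians of 5.5, 13 and 2. The low-dose barcodes thus reached the highest Mzb1 and Derl3 counts, with overlap in both genes, and barcodes of 1 group came from the same pooled sample and are not replicates. These counts were not scaled to depth. The barcodes had 21856 to 50094 UMIs in vehicle, 17824 to 54473 at the low dose and 6348 to 30669 at the high dose. Mzb1 was also in the rule that picked them. Sdc1 was seen in 19 of the 22, never above 7 UMIs.

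**Figure D3:**
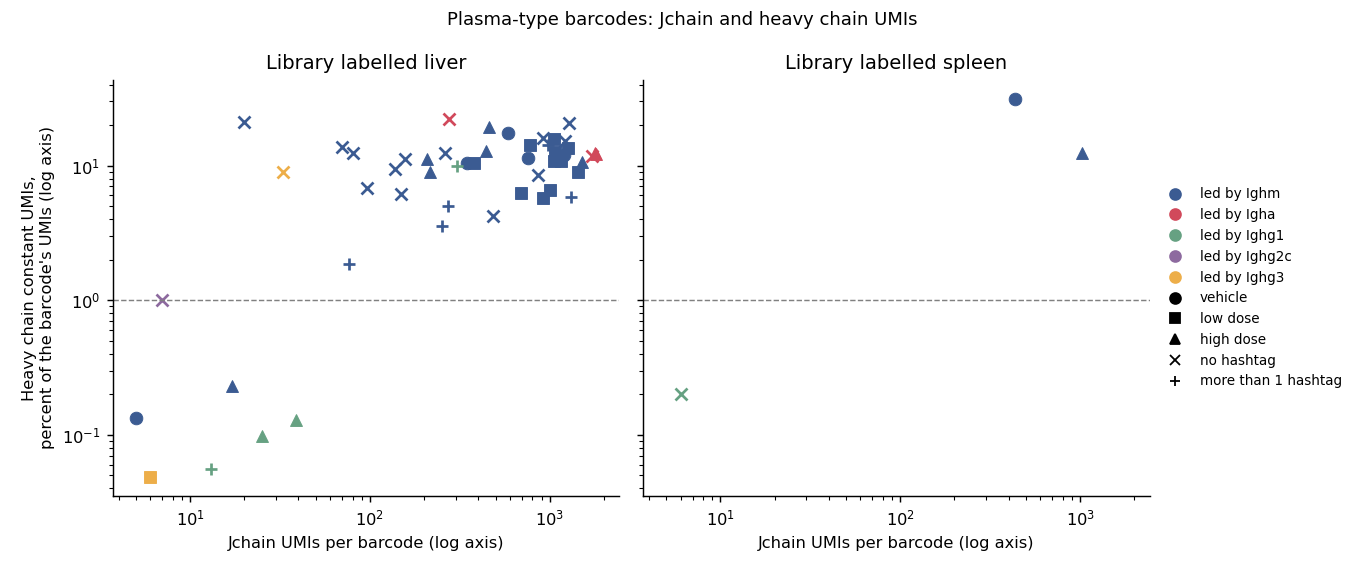
Each point is 1 plasma-type barcode of the liver-labelled library (left) or spleen (right), with its Jchain UMIs (log axis) and the percent of its UMIs from heavy chain constant genes (log axis). Color gives the leading heavy chain gene, shape the hashtag group, crosses and plus signs barcodes with no hashtag or with more than 1, and the dashed line 1%. The Igha-led points of the high dose lie at 1815 and 1778 Jchain UMIs.

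Among the heavy-rich barcodes, IgM was the leading isotype. A barcode was called by its leading heavy chain gene when that gene held at least 50% of 3 or more heavy chain UMIs. All 4 heavy-rich barcodes of vehicle and all 11 of the low dose were led by Ighm, and both of the spleen-labelled library. At the high dose 5 were led by Ighm and 2 by Igha, which is 28.6% with an interval from 3.67 to 71.0, while 0 of 4 in vehicle had an interval that reached 60.2%. The leading gene held at least 99.5% of the heavy chain UMIs in each of the 22. No Ighg gene led in any heavy-rich barcode with a single hashtag. The barcodes were picked by Jchain, which links IgM and IgA, and by a heavy chain share that may run low for the missing Ighg2a. Whether this selection left out gamma cells was not tested. A difference in the share of Igha was not detectable at 4 and 7 barcodes.

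The Igha-led barcodes had 3492 and 3611 Igha UMIs, 0 and 17 of Ighm, 1815 and 1778 of Jchain, and 9 and 22 of Mzb1. Both had Ighv9-4 as their leading heavy chain variable gene, at 6 and 14 UMIs, and Igkv5-48 as their leading light chain variable gene, at 71 and 31 UMIs. The lambda light chain led in 2 of the 11 low-dose barcodes, with 4644 and 4742 lambda UMIs and 1 of Igkc each, and both had Ighv1-12 as the leading heavy chain variable gene, at 3 and 5 UMIs. The plasma-type barcode of the high dose in the spleen-labelled library was also led by lambda, with 10318 UMIs and 1 of Igkc. The pairs of variable genes were noticed after their values were seen. Variable gene names are uncertain here, because the reference carries variable genes of another strain and Iglv1 was also the leading light chain variable row in barcodes whose constant UMIs were kappa.

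The 5 plasma-type barcodes with little heavy chain RNA carried B cell genes. Each had Ms4a1, the CD20 gene, at 8 to 42 UMIs and Pax5, the B cell identity factor, at 2 to 9. Their isotypes were Ighm in vehicle, Ighg3 at the low dose, and Ighg1, Ighg1 and Ighm at the high dose, where the Ighg1-led barcodes had 46 and 22 Ighg1 UMIs. With them, the barcodes that the Jchain and Mzb1 rule took at the high dose were 10, and without them 7.

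The heavy-rich barcodes were set against B-like cells of the liver-labelled library for genes outside the rule. Scaled to non-immunoglobulin UMIs, Derl3 was at 644 CPM in the 22 barcodes and 5.43 CPM in the 1517 B-like cells, a log2 ratio of 6.89 (6.33 to 7.49). Sdc1 was at 136 and 2.17, a log2 ratio of 5.97 (5.01 to 7.03). Jchain, Mzb1 and the heavy chain share, which counts Ighd, were in the rule, and the ratios of 12.45 for Jchain, 4.22 for Mzb1 and -8.26 for Ighd, with 1 UMI against 5463, are a description.

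Of a list of 25 genes of antibody secretion, 24 were at least 2-fold higher in the heavy-rich barcodes, with a median log2 ratio of 4.26, where 14.5% of 9686 genes were. The list was chosen with earlier results of these data known, so its count is a description. It also holds the markers that named the plasma cluster, which is not among the B-like clusters. These markers were Xbp1, Prdm1, Tent5c, Fkbp11, Tnfrsf17, Irf4 and Sec11c. Xbp1, the factor that expands the secretory pathway, had a log2 ratio of 5.60 (5.38 to 5.83), and Prdm1, which encodes Blimp-1, 3.90 (3.29 to 4.49). Tent5c, a poly(A) polymerase of plasma cells, had 7.75, Fkbp11 6.77, Creld2 6.59 and the chaperone gene Hspa5 2.85. Tnfrsf17, which encodes BCMA, had 51 UMIs in 12 of the 22 barcodes and 0 in the B-like cells. The exception was Pim2, a kinase gene, with 2 UMIs and a ratio of -1.40 (-4.46 to 0.50). The B-like clusters had been named from markers that include several genes of the B cell identity list, so that list is a description as well. All 9 of its genes with enough UMIs were at least 2-fold lower (26.4% of all genes), with a median of -3.02. Bach2, Cr2 and Fcer2a had 0 UMIs in the 22 barcodes and 739, 2287 and 1246 in B-like cells, Pax5 had 1 against 1649, and Cd79a was least apart, at -1.16. Immunoglobulin took up to 70.9% of the UMIs of a heavy-rich barcode, so the scale matters. Scaled to all UMIs, 23 of the 25 were higher and 1 lower, where 5.62% of all genes were higher and 55.0% lower.

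Promoter windows were searched for Derl3, Jchain and Sdc1, and not for Mzb1 or the heavy chain members. Of the members searched, Derl3 held a motif that bears on this list. The window shown is the 250 bases before its start, from RefSeq on GRCm38.p6. In capitals is an exact match, on the reverse strand, to the endoplasmic reticulum stress element (CCAAT, then 9 bases of any kind, then CCACG), whose ends are bound by NF-Y and by ATF6 or XBP1.
Derl3, chr10:75893148-75893397, plus strand: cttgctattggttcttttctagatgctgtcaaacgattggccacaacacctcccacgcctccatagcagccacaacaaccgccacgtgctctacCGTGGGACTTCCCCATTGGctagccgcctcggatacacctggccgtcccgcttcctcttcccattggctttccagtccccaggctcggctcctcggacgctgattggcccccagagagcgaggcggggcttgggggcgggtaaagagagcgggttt
The match lies at chr10:75893242-75893260, ending 137 bases before the start. Searched on both strands of windows from 250 bases before to 50 after each start, the element was in 39 of 32851 windows (0.119%). Of the secretion list, 23 genes had a window and 4 held it, Creld2, Hsp90b1, Hspa5 and Dnajc3. The windows of Jchain and Sdc1 did not hold these letters. A match in letters is a description and not a site in use.

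B-like cells with an isotype call were nearly all unswitched. The calls could not count Ighg2a, which the reference lacks, and cells without a call are left out of the shares. Whether either hides switched cells was not tested. In the liver-labelled library an isotype could be called in 506 of the vehicle, 450 of the low-dose and 393 of the high-dose cells, and a switched isotype led in 4 of each, which is 0.791% (0.216 to 2.01), 0.889% (0.243 to 2.26) and 1.02% (0.278 to 2.59). Ighm led in 429, 398 and 330 and Ighd in 73, 48 and 59. Both genes were seen in 79.5%, 73.6% and 82.4% of B-like cells, whose median depths were 3501, 3014 and 3450.5 UMIs. There were 2.74, 2.81 and 2.27 Ighm UMIs for each Ighd UMI. For the spleen-labelled library, a switched isotype led in 0 of 30, 0 of 33 and 1 of 66 called cells, the last being Igha, and the Ighm to Ighd ratio of UMIs was 5.82, 6.26 and 2.73.

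The groups drew their B-like cells from different clusters of the liver-labelled library. The main cluster, of 1019 cells, had 2513 CPM of Ighm and 1026 of Ighd, and held 418 vehicle, 259 low-dose and 342 high-dose cells. A cluster of 149 cells held 141 from the low dose and had Ighg3 at 93.8 CPM, where the main cluster had 19.1, and 45.8 CPM of Cr2, where the main cluster had 433. The Ighg3 value came from 45 UMIs. Over all low-dose cells, 1 barcode held 35 of 82 Ighg3 UMIs, and whether it lay in this cluster was not looked up. A cluster of 57 cells, 56 of them from vehicle, was led by Vpreb3 and by Vpreb1, which encodes part of the surrogate light chain of B cell precursors. It had Ighm at 4937 CPM, Mzb1 at 894 and Sdc1 at 37.2, Ighd at 37.2 from 7 UMIs, and 0 UMIs of Cr2 and Fcer2a. That made 133 Ighm UMIs for each Ighd UMI, against 2.45 in the main cluster. A further cluster of 292 cells was shallow, with a median of 789.5 UMIs.

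Across B-like cells with at least 10 Ighm UMIs, those without any Ighd UMI were 58 of 258 in vehicle, or 22.5% (17.5 to 28.1), 26 of 153 at the low dose, or 17.0% (11.4 to 23.9), and 14 of 155 at the high dose, or 9.03% (5.03 to 14.7). The intervals of vehicle and the high dose did not overlap, and that of the low dose overlapped with both. Median depths of these cells were 3990.0, 4382 and 4770.0 UMIs in the same order, and their part in the result was not tested. Without the cluster led by Vpreb3 and Vpreb1, left out after the values were seen, vehicle had 24 of 220, or 10.9%. Of the 58 vehicle cells without Ighd, 5 had a Vpreb1 UMI, and 0 of those at either dose. The spleen-labelled library had 7 of 14 (23.0 to 77.0%), 3 of 8 and 6 of 37 (6.19 to 32.0%).

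**Figure D4:**
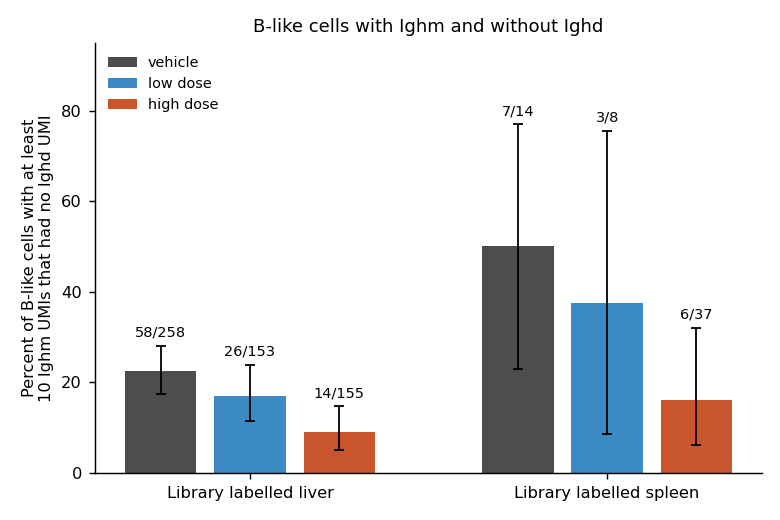
Percent of B-like cells with at least 10 Ighm UMIs that had no Ighd UMI, by group, in the liver-labelled library (left bars) and spleen (right bars), with 95% exact binomial intervals and the counts above each bar. In the liver-labelled library the bars stand at 22.5%, 17.0% and 9.03%.

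Ighm UMIs also appeared in cells that do not make antibody. With every cell thinned to 500 UMIs, 69.9% of B-like cells of the liver-labelled library had an Ighm UMI, 6.49% of T-like cells (5.54 to 7.54), 4.69% of natural killer-like cells and 1.64% of neutrophil-like cells (1.17 to 2.24). Unthinned, T-like cells were at 37.5% with a median depth of 4869 UMIs and neutrophil-like cells at 18.3% with 7499. Thinned shares in the spleen-labelled library were 75.7% in B-like, 2.42% in T-like and 0.101% in neutrophil-like cells, and the unthinned shares of T-like and neutrophil-like cells were 12.7% and 2.53% with medians of 4413 and 4404. The ratio of Ighm to Igkc UMIs, Igkc being the kappa light chain, was 0.359 in vehicle, 0.370 at the low dose and 0.310 at the high dose in B-like cells of the liver-labelled library, and 0.449, 0.483 and 0.534 in neutrophil-like cells. In T-like cells it was 0.810 (0.725 to 0.904) in vehicle, 2.15 (1.84 to 2.51) at the low dose and 2.43 (2.11 to 2.81) at the high dose. The vehicle value is lower than the others. Among T-like cells of vehicle, the top barcode for Igkc held 215 of 726 UMIs, and the top barcode for Ighm 68 of 588. The ratio without them was not taken, so their part in the lower value is not shown. T-like cells of the spleen-labelled library had 8 Ighm and 1 Igkc UMIs in vehicle, 18 and 4 at the low dose, and 128 and 99 at the high dose, where 1 barcode held 71 of the 99.

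Plasmacytoid dendritic cells are known to carry Mzb1 and Ighm RNA without being of the B lineage. The 25 such cells of the spleen-labelled library had Ighm at 972 CPM, with a UMI in 56.0% after thinning, and Mzb1 at 421 CPM, which is close to the 465 CPM of B-like cells. Jchain had 1 UMI there and Sdc1 had 0, which allows up to 3 counts. Sdc1 outside the B lineage was highest in cells like the 4T1 tumor, at 109.9 CPM with a UMI in 72.0% of 82 cells whose median depth was 30285, followed by macrophage-like cells at 21.3 CPM. B-like cells of that library had 1.84 CPM and T-like cells 0.451 CPM. In the liver-labelled library, Sdc1 was at 59.4 CPM in plasma-type barcodes and 0.227 in T-like cells. Of the 430 Sdc1 UMIs of the spleen-labelled library, 426 were thus outside the plasma-type barcodes.

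**Figure D5:**
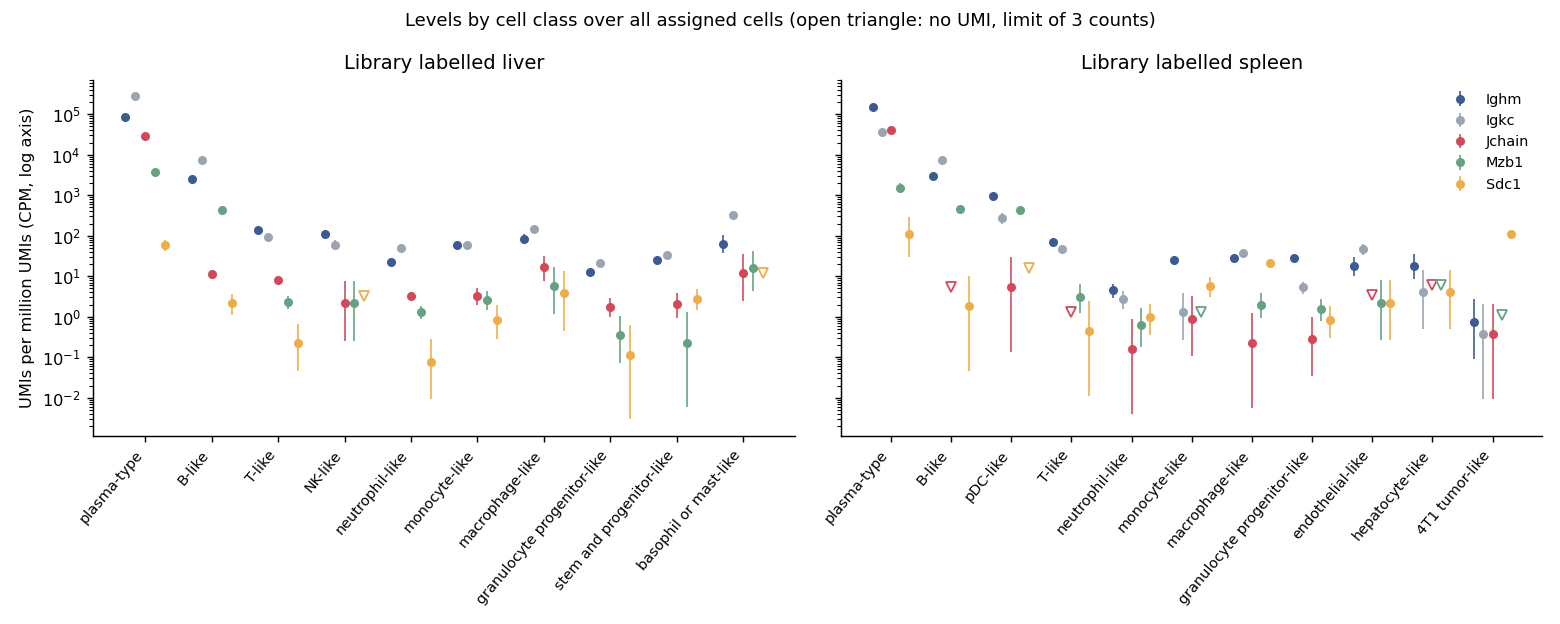
CPM (log axis) of Ighm, Igkc, Jchain, Mzb1 and Sdc1 by cell class over all cells with 1 hashtag, with 95% counting intervals, in the liver-labelled library (left) and spleen (right). Open triangles stand at 3 counts where a class had no UMI. Jchain drops from 28535 CPM in plasma-type barcodes to 11.4 in B-like cells of the liver-labelled library, and Sdc1 in the spleen-labelled library is at 109.9 in 4T1 tumor-like cells.

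Over the other named classes together, Ighm was at 51.4, 46.4 and 61.3 CPM in vehicle, low and high dose of the liver-labelled library, Igha at 1.77, 1.90 and 2.20, and Jchain at 5.48, 3.33 and 3.60. Of the Jchain UMIs, T-like cells held 56 of 124 in vehicle, 20 of 72 at the low dose and 34 of 54 at the high dose. The high dose, where 2 plasma-type barcodes had 7103 Igha UMIs, had 33 Igha UMIs among the 14980194 UMIs of these classes. Vehicle had 40 among 22619661. The groups were loaded together, so free RNA of any group could reach droplets of all groups, and these counts cannot show its source. The same classes of the spleen-labelled library had Ighm at 29.2, 19.6 and 20.5 CPM and Sdc1 at 11.0, 9.89 and 25.2.

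Likeness to other genes was measured by Pearson's r of log2 CPM, with 10 CPM added, over the 43 clusters of both libraries and 11007 genes, as a description. Clusters of a library share its depth and free RNA. Igha was closest to Iglv1 (r = 0.907), Eaf2 (0.893) and Derl3 (0.838), and Derl3 to Igha and Eaf2 (0.817). Of the 7318 Igha UMIs, 7103 lay in 2 high-dose barcodes of 1 cluster, so the values with Igha rest largely on that cluster. Jchain was closest to Iglv1 (0.812) and Ighm (0.745). Ighd was closest to Ffar1 (0.951) and Fcmr, the IgM receptor gene (0.933), with Cd22 and Cxcr5 next to them. Mzb1 was closest to the lambda constant genes Iglc2 (0.957) and Iglc3 and to Fcrla (0.921). Sdc1 was closest to Ehd2 (0.763), Fbxo2 and Kdelr3.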

How the data were processed

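For both libraries the authors deposited UMI counts as Cell Ranger's filtered matrices, neither normalized nor annotated (Cell Ranger 5.0.0 per the matrix header, 6.0.0 in the submitters' processing notes, which name mm10). Every barcode had at least 500 UMIs. Gene identifiers were matched to GENCODE M21. There were 0 columns of no sample.

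Barcodes were assigned to hashtags by HTODemux in Seurat 5.3.0 (R 4.3.3) at quantile 0.99, and barcodes with 1 hashtag were kept without a filter on mitochondrial UMIs. Doublets across hashtags were dropped. Scrublet (scanpy 1.11.5) marked 248 barcodes (2.59%) and 1 (0.0207%), which stayed in, and in the spleen-labelled library it had not worked. SCTransform (sctransform 0.4.2) was run per library with 3000 variable genes, of which 50 and 11 were members or immunoglobulin genes and were left out. Clustering used 30 components at resolution 0.8, giving 25 and 18 clusters. A name needed at least 3 of its markers with a log2 fold of at least 1.0 over the other clusters and a UMI in at least 20% of cells. No other marker list could hold more of the cluster's 10 leading genes, and ties went to the list with the larger share raised. Clusters with a median depth below the library median divided by 3 and no marker among those 10 were left unnamed. In all, 994 and 196 barcodes stayed unnamed.

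UMIs were summed per group. CPM intervals are Poisson, shares Clopper-Pearson, and log2 ratios conditional binomial (scipy 1.17.1, 95%). Limits of a difference in share combine the exact intervals of both shares as the root of summed squares, and are approximate. Ratios needed 20 UMIs over both groups, and past 2-fold was the call, with no p-value, since each group was 1 pooled sample per library. A count of 0 was given a limit of 3 counts. On simulated counts the calculation gave the direction of 200 of 200 genes changed by a log2 of 2 for the high dose over vehicle in the liver-labelled library, and intervals held the true value for 95.6% of 12985 genes. The counts were drawn from a Poisson model, as the intervals assume, so this checks the calculation only. It cannot show how the intervals hold where single barcodes carry most UMIs of a gene.

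The genes named were the members, the genes of the secretion and B identity lists, leading isotypes and variable genes, and genes most like a member. The members and lists were chosen with earlier results of these data known. Alternatives were other hashtag callers, Scrublet removal, cell filters, cluster resolutions, thinning depths, and thresholds for plasma type and isotype, with some added after seeing the data. One gene of the B identity list, and the alternative that used it, are not reported here.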

Additional observations from a re-analysis of the deposited data

Results flagged for a closer look

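The low-dose ratio of Ighm to vehicle was 0.79 on the log2 scale in the liver-labelled library and -2.06 in the spleen-labelled library. For Jchain the values were 1.93 and -8.33 (interval -11.38 to -6.47, from 2 low-dose UMIs), and for Mzb1 1.32 and -1.20. The high-dose ratio of Ighm was -0.15 and 0.69. These were picked out because the libraries went in opposite directions, and the difference between the libraries was not tested. A single plasma-type barcode of vehicle in the spleen-labelled library held 432 of 435 Jchain UMIs, and without it and its high-dose counterpart the Ighm ratios there were -0.44 at the low dose and 0.15 at the high dose. Without plasma-type barcodes in the liver-labelled library they were -0.28 and 0.20. The high-dose barcode with the most Mzb1 UMIs in that library, 83, was outside the plasma-type rule and stayed in these sums. Its Mzb1 count is that of the plasma-cluster cell without Jchain UMIs, which was rich in Ighm. A high-dose ratio without it was not taken, so no agreement in sign between the libraries is drawn from these values.

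Barcodes without a single hashtag, which enter no comparison, held 24 plasma-type barcodes of 1156 in the liver-labelled library, or 2.08% (1.33 to 3.07), against 0.161% in vehicle and 0.320% (0.211 to 0.465) over all barcodes with 1 hashtag. Of these, 17 were among 540 barcodes with no hashtag (3.15%) and 7 among 616 with more than 1 (1.14%). Those with no hashtag had a median of 5005 UMIs, against 25314 in the plasma-type barcodes with 1 hashtag. The 17 were led by Ighm in 13, Igha in 2, and Ighg2c and Ighg3 in 1 each, and the 6 heavy-rich barcodes with more than 1 hashtag by Ighm in 5 and Ighg1 in 1. Heavy-rich barcodes thus numbered 23 outside the groups and 22 within them, and group shares leave the 23 out. The spleen-labelled library had 1 plasma-type barcode among 1842 without a single hashtag.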

How the results depend on the processing

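No paired analysis was possible because each group was 1 pooled sample in each library and no result came from a test. All 36 values of the dose change in plasma-type share stayed within counting error. With 1 UMI of Jchain and Mzb1 as the rule, plasma-type shares in the liver-labelled library were 0.677% in vehicle, 0.783% at the low dose and 0.982% at the high dose, and with 10 UMIs the vehicle share in the spleen-labelled library was 0. The share of low-dose plasma-type barcodes led by Ighm was 100% with 10 UMIs, with heavy-rich barcodes, with a leading gene of 80%, or with 10 heavy chain UMIs, each of which removed the Ighg3-led barcode. Requiring 80% for B-like isotypes gave 3.51% switched (4 of 114) at the high dose in the liver-labelled library and 0 of 22 in the other, with far fewer cells called. T-like cells with an Ighm UMI were 11.6% thinned to 1000 UMIs and 37.5% unthinned in the liver-labelled library, neutrophil-like cells 3.68% and 18.3%, and in the spleen-labelled library 12.7% and 2.53% unthinned. Within B-like cells the sign of the log2 dose ratio turned for Ighm low (-0.27), Ighd high (-0.15), Ighg1 high (-0.94), Jchain low (-0.15) and high (-0.95), Mzb1 low (-0.15) and high (-0.30), and Derl3 low (-1.04) and high (-0.16), and in the spleen-labelled library for Ighm high (-0.56) and Mzb1 high (-0.60). Also leaving out the cluster led by Vpreb3 and Vpreb1, added after seeing the data, gave -0.19, -0.27, -1.07, -0.23, -1.03, -0.02, -0.16, -1.17 and -0.29 in the same order for the liver-labelled library. Without the barcode with the most UMIs of the gene in each group, the high-dose ratios of Ighg2b and Sdc1 in the liver-labelled library fell below 2-fold, at 0.83 and 0.82. With MULTIseqDemux the high-dose Jchain ratio in the spleen-labelled library was -0.09. The cause of that last value was not tested. Of 230 ratios under alternatives, 192 were unchanged in whether the interval excluded 0 and, where it did, in sign. Of the others, 21 with a main interval clear of 0 turned sign, 12 came to hold 0 and 5 came to exclude it. The side of 2-fold was not counted there. Of 360 levels, 292 stayed within counting error. With few plasma-type barcodes, a difference in share below the width of the intervals was not detectable.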

Other observations

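Vpreb1, part of the surrogate light chain of B cell precursors, was at 7.81 CPM in vehicle, 0.524 at the low dose and 0.519 at the high dose over all cells of the liver-labelled library, from 207, 13 and 9 UMIs. These UMIs were in 25 of 3103, 13 of 3194 and 9 of 2138 barcodes. The Vpreb1 level in the spleen-labelled library was 6.31, 0.948 and 0.283 CPM, from 45, 10 and 3 UMIs in 4, 9 and 3 barcodes. Rag1, a recombinase of developing lymphocytes, had 49, 0 and 3 UMIs in the liver-labelled library and 7, 0 and 0 in the spleen-labelled library. Both genes were looked up after the cluster led by Vpreb3 and Vpreb1 had been seen to hold 56 vehicle cells of 57. Each group was 1 pool of mice, so a single mouse cannot be told apart from the treatment.

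The pair of Ighv9-4 with Igkv5-48, each at 3 or more UMIs, was found in 2 barcodes of the liver-labelled library, the Igha-led ones of the high dose, and the pair of Ighv1-12 with Iglv1 in 2, the lambda-led ones of the low dose. Ighv9-4 alone reached 3 UMIs in 3 barcodes and Ighv1-12 in 2.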
